A study of Mus musculus with 16 samples.

Results

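Thyroid hormone handling and response in the brain were followed through 8 genes in whole-brain RNA of male mice, wild type or deficient in Slc5a8, which takes up lactate, pyruvate and ketone bodies together with sodium. They were Slco1c1, Dio2, Dio3, Thra, Thrb, Hr, Klf9 and Crym, and every non-control probe carrying one of these gene names was taken, which gave 11 of the 55681 distinct probes and 8 of the 34821 gene names on the array. Slco1c1, Thra and Thrb had 2 probes each, written here with their position on the transcript (Thrb at 4912), and the other genes had 1. Wild-type and Slc5a8-deficient mice, all given as C57BL/6J, were taken at 4 and at 18 months, giving 4 groups with 4 one-colour arrays apiece. The series' design text describes the arrays of a group as biological replicates. The labels do not say which part of Slc5a8 was removed, in which cells, or how the wild-type mice were bred.

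Values are log2 processed signals minus the array's 75th percentile, called levels below, so that 1 unit is a doubling. Differences are given as log2 differences ± SE from a single limma fit of the 4 groups to the 33075 probes kept by a filter on dim signal, with 4 arrays per group. A probe was called, and is said to have risen or fallen, when its Benjamini-Hochberg adjusted p over all kept probes was under 0.05. All 11 probes passed the filter and were well above background on all 16 arrays. With 4 arrays a group, precision is set by that number. The Slc5a8 probe itself was well above background on 0 of 16 arrays, at levels from -7.9 to -6.34, so it says nothing about the genotype labels. All 10 neuronal, all 10 astrocyte and all 8 oligodendrocyte marker genes were well above background on the 16 arrays. Each genotype occupied 1 of the 2 slides, read in 1 scan, and each group 1 row of a slide. Genotype therefore cannot be told apart from slide, and the interaction of genotype and age cannot be told apart from slide row. Age differences lie within a slide but compare its rows. The dimmest array was array 1 of the 4-month deficient group, with a 75th percentile of 626 where the others ran up to 1348, and array 1 of the 4-month wild-type group stood apart by its high pituitary and choroid plexus markers.

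Thyroxine, the form of thyroid hormone that circulates most, crosses the vessels and astrocytes of the brain through transporters such as Slco1c1. Dio2, made mainly by astrocytes and by the tanycytes that line the hypothalamic ventricle, converts thyroxine to the active hormone triiodothyronine, and Dio3, made by neurons, inactivates both. Triiodothyronine acts through the nuclear receptors Thra and Thrb, which bind DNA with retinoid X receptors and switch between corepressors and coactivators. Hr and Klf9 are direct receptor targets, Hr itself being a corepressor, and Crym binds the hormone in the cytoplasm. Dio2 is known to be held down by thyroid hormone and induced by cAMP, whereas Dio3 and Hr are induced by thyroid hormone.

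The probe sequences below identify what was measured for the genes whose values carry the results and for the gene whose probes disagreed. The Thra probe at 536 is shown whole and the others by their central 30 bases, read 5′ to 3′.
Dio2: cgaaagagctgtctgctcagtctgtggttg
Thrb at 4280: aatcttgtccagactttcaaatcaagtgtg
Thrb at 4912: agatgtagccagtgttttataaggctaaac
Hr: ctcttgttatacttaacagttcctgctgtg
Slco1c1 at 2643: gactctaagcataacatgacaaacctctaa
Thra at 536: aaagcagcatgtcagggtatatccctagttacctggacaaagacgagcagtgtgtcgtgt
Thra at 2176: taactgcactttggaaaccaagcaagggga
In the scanner files (NCBI37/mm9) the Dio2 probe lies at position 5512 of its transcript, on chr12:91963235-91963294, minus strand. The Thrb probes lie on chr14:18868800-18868859 and chr14:18869432-18869491, and the Hr probe on chr14:70973263-70973322, all on the plus strand. The Slco1c1 probe at 2643 lies on chr6:141518164-141518223, plus strand. The Thra probe at 536 spans 807 bases of the genome, chr11:98617475-98618281, plus strand, and so crosses an exon junction. Its sequence is coding and runs up to the start of the DNA-binding domain, whereas the Thra probe at 2176 lies far downstream in an unbroken stretch, chr11:98626356-98626415.

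Of the 8 genes, Dio2 and Thrb were those with a called probe. Dio2 was lower in deficient than in wild-type brains at 18 months, and lower at 18 than at 4 months within the deficient mice. The Thrb probe at 4912 was higher at 18 than at 4 months when both genotypes were averaged. For Slco1c1, Dio3, Thra, Hr, Klf9 and Crym no difference was called in any of the 7 contrasts.

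**Figure D1:**
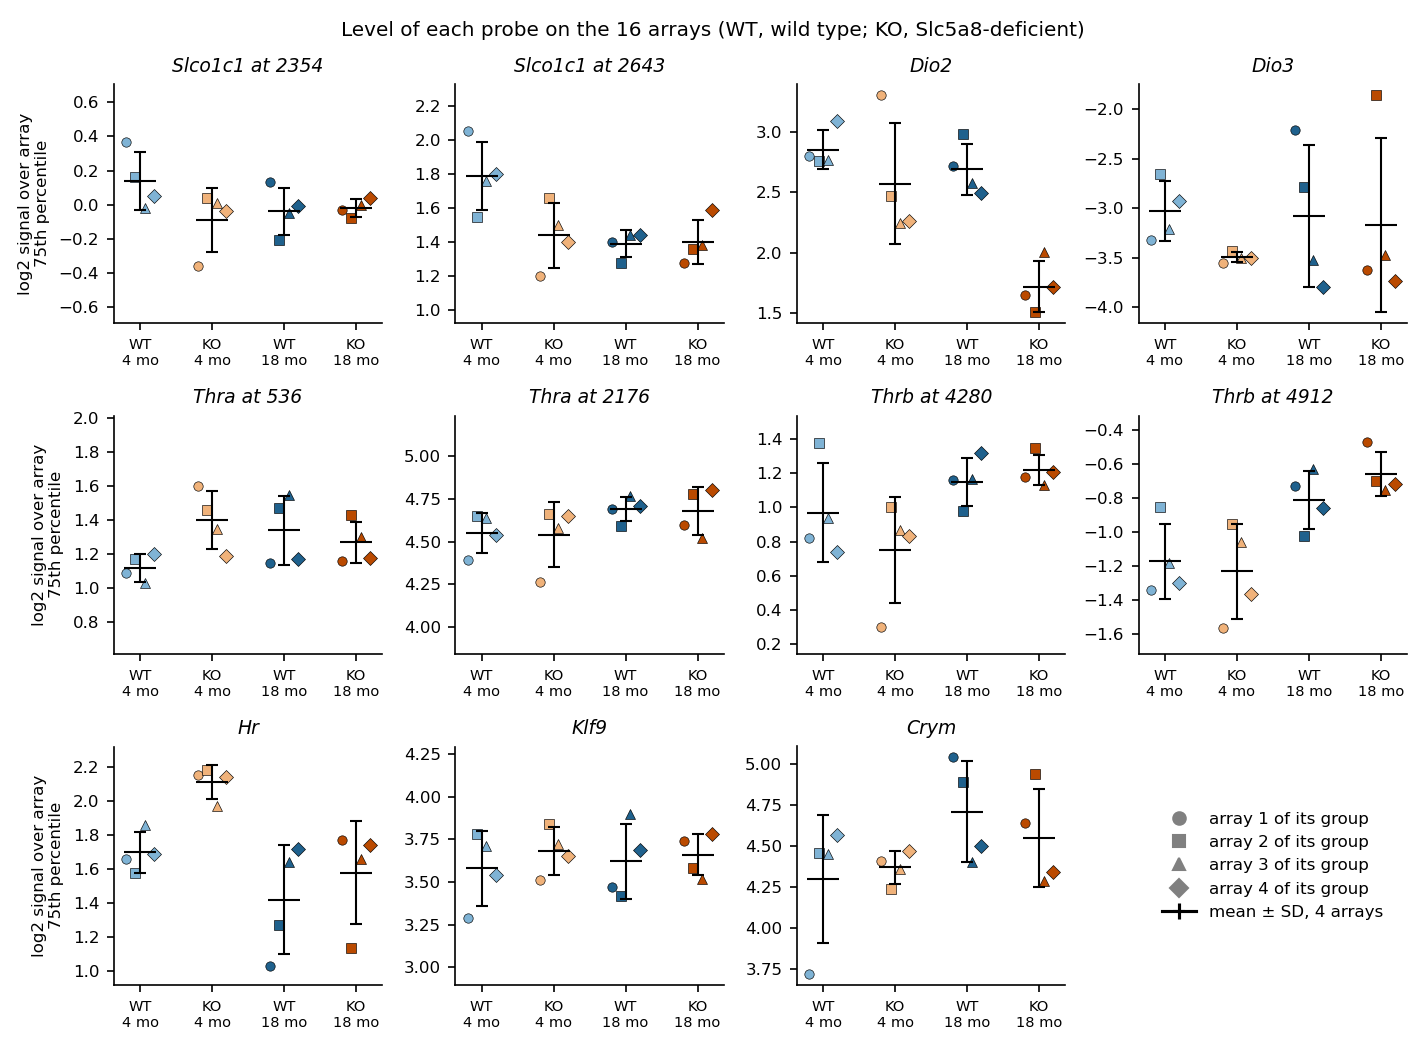
Level of each of the 11 probes (log2 signal over the array's 75th percentile, y axis, with a scale of its own in each panel) on the 16 arrays, by group; symbols are single arrays and bars the mean ± SD of 4 arrays. The 4 arrays of the 18-month deficient group lie between 1.51 and 2.01 for Dio2, below all arrays of the other groups.

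Slco1c1, the organic anion transporter that carries thyroxine across the blood-brain barrier, was highest in the young wild-type group. Its probe at 2643 read 2.05, 1.55, 1.76 and 1.80 in 4-month wild-type brains and 1.20, 1.66, 1.50 and 1.40 in 4-month deficient brains. At 18 months it read 1.40, 1.28, 1.44 and 1.44 in wild-type and 1.28, 1.36, 1.38 and 1.59 in deficient brains. The young wild-type arrays all lay above the old wild-type arrays, and overlapped the young deficient ones only through array 2 of each group. The differences were -0.35 ± 0.12 by genotype at 4 months (limma adjusted p = 0.156) and -0.40 ± 0.12 by age in wild type (adjusted p = 0.328, exact two-sided permutation p = 0.0286, the smallest that 4 against 4 arrays allow). By genotype at 18 months the difference was 0.01 ± 0.12, with a 95% interval from -0.25 to 0.27, and by age in deficient mice -0.04 ± 0.12 (-0.29 to 0.22). The interaction, that is the genotype difference at 18 months minus that at 4 months, was 0.36 ± 0.17 (adjusted p = 0.467). The probe at 2354 followed the first over the 16 arrays (r = 0.76, Spearman's rho = 0.75, as a description, since the 2 probes read the same RNA). Its means were 0.14 ± 0.17 (SD, n = 4) in young wild type and -0.09 ± 0.19 in young deficient brains, and -0.04 ± 0.14 and -0.02 ± 0.05 in old wild-type and old deficient brains. The brain endothelium marker list, 10 of 10 genes measured on all arrays, had group means of 0.12 in young wild type, 0.01 in young deficient, -0.03 in old wild type and -0.11 in old deficient brains, each as a log2 deviation from the mean of the 16 arrays, with 0 of 10 genes called in any contrast. Array 1 of the young wild type was highest both for this list, at 0.23, and for the Slco1c1 probe. The choroid plexus list was also highest in young wild type, at a mean of 0.66 against -0.12, -0.09 and -0.45 in young deficient, old wild-type and old deficient brains. Its 9 genes were all lower by genotype at 4 months (median -0.78, 0 called by limma, 5 at an unadjusted p under 0.05, which 17.4% of all genes had). They were also all lower with age in wild type (median -0.69, 0 called, 2 unadjusted, against 6.35% of all genes). Array 1 of the young wild type was again highest for this list, at 1.69. Without that array and array 1 of the young deficient group, an omission chosen after seeing the data, the Slco1c1 difference at 4 months was -0.19 (adjusted p = 0.51). The part of vessel and choroid plexus content in the Slco1c1 values was not tested, and in whole tissue fewer cells of a type and less RNA per cell cannot be told apart.

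Dio2, the deiodinase that produces triiodothyronine in the brain, read 2.80, 2.76, 2.77 and 3.09 in young wild-type brains. In young deficient brains the 4 levels were 3.30, 2.47, 2.25 and 2.26. Old wild-type brains gave 2.72, 2.98, 2.58 and 2.49, and old deficient brains 1.65, 1.51, 2.01 and 1.72. The 4 old deficient arrays were the lowest of the 16 and overlapped no other group, while array 1 of the young deficient group, the dimmest array, was the highest of all. Group means were 2.85 ± 0.16 (SD, n = 4) and 2.57 ± 0.50 at 4 months and 2.69 ± 0.21 and 1.72 ± 0.21 at 18 months, wild type before deficient.

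At 18 months Dio2 fell with the deficiency by 0.97 ± 0.20 on the log2 scale, a 1.96-fold lower signal (limma adjusted p = 0.0254, 95% interval -1.40 to -0.54, exact two-sided permutation p = 0.0286). It was the only 1 of the 11 probes called in that contrast, in which 1.36% of all 33075 probes were called. At 4 months the same difference was -0.28 ± 0.20 (adjusted p = 0.491, interval -0.72 to 0.15). Averaged over both ages Dio2 fell by 0.63 ± 0.14 (adjusted p = 0.0265), again 1 of 11 probes against 3.13% of all probes. With age Dio2 fell by 0.85 ± 0.20 in deficient mice, a 1.8-fold lower signal (adjusted p = 0.0445, exact permutation p = 0.0286), as 1 of 11 probes where 2.1% of all probes were called. In wild-type mice the age difference was -0.16 ± 0.20 (adjusted p = 1, interval -0.59 to 0.27). The genotype difference itself was not shown to change with age: the interaction was -0.69 ± 0.29, with an unadjusted p of 0.0305 and an adjusted p of 0.414 over all probes in the limma fit.

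The fall at 18 months lost its call when array 1, 2 or 4 of the old deficient group (adjusted p = 0.0757, 0.0954 and 0.0697) or array 1 or 2 of the old wild type (0.0649 and 0.088) was left out, with differences from -1.06 to -0.87 over the 16 such fits, and also without the filter on dim probes (0.0687). Leaving out the dim array 1 of the young deficient group brought its adjusted p to 0.00106 with the same difference of -0.97. The same omission moved the 4-month difference to -0.53 ± 0.14 (adjusted p = 0.0914) and the age difference in deficient mice to -0.60 ± 0.14 (0.0541). That age difference was called in 4 of the 16 fits without 1 array, namely without array 3 or 4 of the young deficient or array 2 or 4 of the old wild-type group, and its adjusted p reached 0.141 without array 2 of the old deficient group. The averaged genotype difference was called in 7 of 16 such fits, at most 0.0609 (without array 2 of the old deficient group), and 0.000442 without array 1 of the young deficient group.

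Marker genes of the cells that make Dio2 were set beside it. The astrocyte list had means of -0.06 in old wild-type (arrays from -0.16 to 0) and -0.03 in old deficient brains (-0.10 to 0.04). Of its 10 genes, Gjb6, a gap junction protein, rose with the deficiency at 18 months by 0.45 ± 0.08 (adjusted p = 0.0097 over 23032 genes), and 0 fell, where 1.47% of all genes were called. With age in deficient mice Gjb6 rose by 0.40 ± 0.08 (0.0211) and Aqp4, the water channel of astrocyte endfeet, fell by 0.67 ± 0.14 (0.0228), where 2.39% of all genes were called. In that contrast 8 of the 10 astrocyte genes were lower and 2 higher, with a median of -0.13, against -0.014 for all genes. The astrocyte list mean was 0.09 in young deficient brains (arrays from 0.02 to 0.15), above the -0.03 of the old ones. Of the 8 tanycyte markers 6 were measured, and at 18 months all 6 were lower in deficient brains with 0 called, 0 of them also at an unadjusted p under 0.05, and a median difference of -0.16. The tanycyte list ranged from -0.15 to 0.49 in old wild-type and from -0.27 to 0.12 in old deficient arrays, and Gpr50 and Scn7a, 2 of its defining genes, were below the filter. The list of 8 spinal cord and caudal hindbrain genes, all of the Hox family, can be described by detection only. At 18 months each of the 8 exceeded background clearly on only 1 of 4 wild-type arrays, and 6 of them did so on all 4 deficient arrays. They passed the filter only through groups in which they were high, so the wild-type levels here are set by background. No size or call is given for a genotype difference of these genes, and the share of all probes with such detection was not counted. At 18 months 8 of 8 striatal projection neuron markers were higher in deficient brains (median 0.36, 0 called by limma). Of these, 1 had an unadjusted p under 0.05, which 9.91% of all genes had. How much the cells or regions sampled contributed to the Dio2 difference was not tested.

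**Figure D2:**
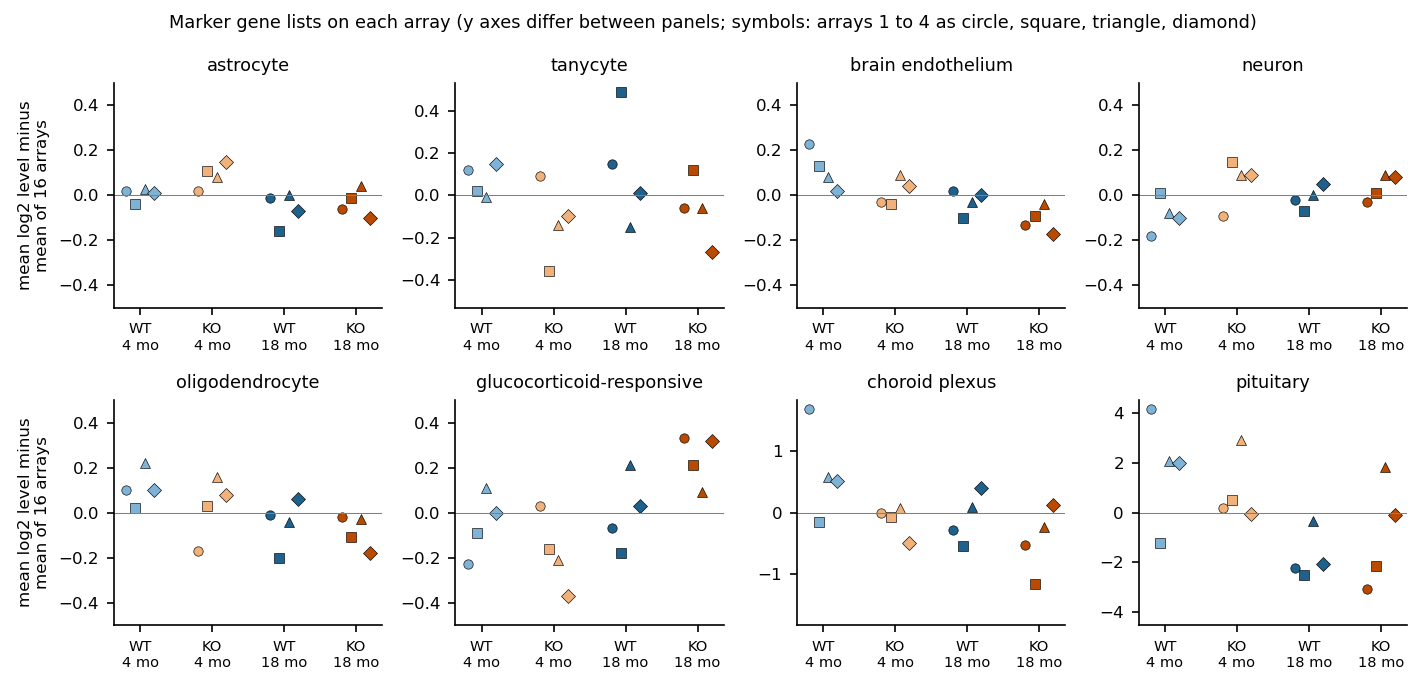
Mean level of 8 marker lists on each array, as log2 deviation from the mean of the 16 arrays (y axis, scales differ between panels), by group. Astrocyte levels of the old groups overlap (-0.16 to 0 in wild type, -0.10 to 0.04 in deficient brains), while pituitary levels of single arrays run from -3.05 to 4.15. Of the 5 measured pituitary genes 3 were well above background on all 16 arrays.

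The 250 bases upstream of the Dio2 start are shown because Dio2 is the member that changed with genotype. They lie on chr12:90739039-90739288, minus strand, in RefSeq's GRCm38.p6 annotation, a later build than that of the probe coordinates. The capitals mark the single match to TGACGTCA, the palindromic cAMP response element, which begins at position -95 from the start.
Dio2 promoter: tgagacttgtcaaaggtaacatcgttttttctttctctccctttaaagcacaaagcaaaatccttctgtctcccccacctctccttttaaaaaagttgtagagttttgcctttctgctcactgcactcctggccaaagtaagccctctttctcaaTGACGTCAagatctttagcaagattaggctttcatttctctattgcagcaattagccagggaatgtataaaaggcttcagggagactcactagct
This element was found in 508 of 32851 promoter windows of the same length (1.5%). The promoter table used here, drawn from RefSeq, held 6 windows for 5 of the 8 genes, and Hr, Thra and Crym were not searched, and of these 6 windows the Dio2 window was the one that held it. The receptor-binding element AGGTCA, searched on both strands, was present in 14.0% of all windows and in 1 of the 6, the upstream window of Thrb. Its direct repeat with 4 bases between, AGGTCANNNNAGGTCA, was present in 5 windows of the whole table and in 0 of the 6. GC content was 41.6% in the Dio2 window, against a median of 52.4% over all windows. These matches describe the letters only.

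Dio3, which inactivates thyroid hormone, was the most variable of the 11 probes between arrays of a group. Its levels were -3.32, -2.65, -3.21 and -2.93 in young wild-type brains and -3.55, -3.43, -3.50 and -3.50 in young deficient brains. In old brains they were -2.21, -2.79, -3.52 and -3.80 in wild type and -3.62, -1.86, -3.47 and -3.74 in deficient mice. The young deficient arrays lay close together and all below the young wild type, whereas both old groups spread over more than a unit and overlapped. Its pooled SD within groups was 0.59, larger than that of 95.1% of all kept probes. Dio3 was also the dimmest of the 11 probes, with a mean level above that of only 27.4% of kept probes. The rank of its SD does not take brightness into account. The genotype difference at 4 months was -0.47 ± 0.38 (limma adjusted p = 0.553, exact two-sided permutation p = 0.0286), and at 18 months -0.09 ± 0.38 (interval -0.90 to 0.72). By age the differences were -0.05 ± 0.38 in wild-type and 0.32 ± 0.38 in deficient mice, with adjusted p-values of 1 and 0.637. Neither kept its sign when single arrays were left out: without array 2 of the old deficient group, at -1.86, the Dio3 difference in deficient mice was -0.12, and with 1 array left out the wild-type difference ran from -0.34 (without array 1 of the old wild type) to 0.19 (without array 4 of that group).

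Thrb, the receptor that mediates feedback and sensory development, was read by 2 probes that moved together over the 16 arrays (r = 0.86, rho = 0.84, of the same RNA). The probe at 4912 read -1.34, -0.85, -1.18 and -1.30 in young and -0.73, -1.02, -0.63 and -0.86 in old wild-type brains. In deficient brains it read -1.56, -0.95, -1.06 and -1.36 at 4 months and -0.47, -0.70, -0.75 and -0.72 at 18 months. Old deficient arrays all lay above the young deficient ones, while 1 young and 2 old wild-type arrays fell within the range of the other age. Averaged over genotypes Thrb at 4912 rose with age by 0.47 ± 0.10 (adjusted p = 0.0388), the only 1 of 11 probes called where 1.46% of all probes were called. Within each slide the age difference was 0.36 ± 0.15 in wild-type (adjusted p = 0.676) and 0.57 ± 0.15 in deficient mice (0.0578), neither of them called. The probe at 4280 gave a mean of 0.97 ± 0.29 (SD, n = 4) in young and 1.15 ± 0.14 in old wild-type brains, and 0.75 ± 0.31 in young and 1.22 ± 0.09 in old deficient brains. Its age difference averaged over genotypes was 0.33 ± 0.11 (adjusted p = 0.181), and in deficient mice 0.47 ± 0.16 (0.123). Genotype differences of Thrb at 4912 were -0.06 ± 0.15 at 4 months and 0.15 ± 0.15 at 18 months, with intervals of -0.38 to 0.25 and -0.17 to 0.46.

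The averaged rise of Thrb at 4912 was called in 5 of the 16 fits that left out 1 array: array 1, 2 or 3 of the young deficient, array 2 of the old wild-type or array 2 of the young wild-type group. In the other fits the adjusted p reached 0.0871, without array 3 of the young wild type. With the mean of the 2 Thrb probes as the gene's value the rise was 0.40 ± 0.10 (adjusted p = 0.0621), and without both arrays that stood apart it was 0.38 ± 0.10 (0.0903). Array 1 of the young deficient group held the lowest level of both Thrb probes. Marker lists moved with age in both directions beside Thrb. Averaged over genotypes 7 of 8 striatal projection neuron markers (median 0.09) and 7 of 10 neuron markers (median 0.03) were higher at 18 months, with 0 called. The striatal markers were higher for 7 of 8 in deficient mice (median 0.30) and lower for 7 of 8 in wild type (median -0.11). Other lists were lower. Cerebellar granule and Purkinje cell markers were lower at 18 months for 8 of 8 genes averaged over genotypes, with a median of -0.48 and 0 called by limma (5 at an unadjusted p under 0.05, which 14.8% of all genes had). Their list means were 0.05 and 0.38 in young and -0.18 and -0.26 in old brains, wild type before deficient. The 8 spinal cord and caudal hindbrain genes were at background on most old wild-type arrays, so no direction or size is given for their age difference. Choroid plexus markers were lower for 9 of 9 genes (median -0.41, 0 called, 5 unadjusted, again against 14.8% of all genes). Of the pituitary markers 5 of 8 were measured. Only 3 of these were well above background on all 16 arrays, while Gh was so on 11 and Prl on 14. Levels of Gh and Prl on the remaining arrays depend on how background is handled. All 5 were lower at 18 months in each genotype with 0 called in the averaged contrast (4 at an unadjusted p under 0.05, which 14.8% of all genes had). The list ran from -1.22 to 4.15 in young wild type, -0.04 to 2.91 in young deficient, -2.50 to -0.33 in old wild-type and -3.05 to 1.83 in old deficient arrays. Fshb, Pou1f1 and Tbx19 were below the filter. The part of these regions and tissues in the Thrb values was not tested.

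The 250 bases upstream of the first Thrb start, chr14:17660710-17660959, plus strand, GRCm38.p6, are shown because this window held the AGGTCA match, in capitals, beginning at position -184.
Thrb promoter: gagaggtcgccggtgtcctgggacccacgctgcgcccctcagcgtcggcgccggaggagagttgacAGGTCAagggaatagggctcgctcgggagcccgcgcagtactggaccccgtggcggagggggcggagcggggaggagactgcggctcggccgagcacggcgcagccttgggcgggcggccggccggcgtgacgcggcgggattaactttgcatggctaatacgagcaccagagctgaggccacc
Its GC content was 71.6%. The second Thrb window, chr14:17981394-17981643, held neither element and had a GC content of 44.0%.

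Thra, the main receptor of the brain, showed no called difference, and its 2 probes did not follow each other over the arrays (r = -0.13, rho = -0.03). The probe at 2176 had means of 4.55 ± 0.12 (SD, n = 4) and 4.54 ± 0.19 in young wild-type and young deficient brains and 4.69 ± 0.07 and 4.68 ± 0.14 in old ones. Its genotype differences were -0.02 ± 0.11 at 4 months and -0.01 ± 0.11 at 18 months, with intervals from -0.25 to 0.22 and from -0.24 to 0.22. The probe at 536 read 1.09, 1.17, 1.03 and 1.20 in young wild-type and 1.60, 1.46, 1.35 and 1.19 in young deficient brains. Old wild-type brains gave 1.15, 1.47, 1.55 and 1.17, and old deficient brains 1.16, 1.43, 1.30 and 1.18. All but 1 of the young deficient arrays lay above the young wild type, and the old groups overlapped. The differences at 536 were 0.28 ± 0.12 by genotype at 4 months (adjusted p = 0.239), -0.07 ± 0.12 at 18 months, and -0.35 ± 0.16 for the interaction (adjusted p = 0.468). The Thra locus overlaps Nr1d1, a clock repressor, on the opposite strand. Nr1d1 averaged -0.17 ± 0.16 (SD, n = 4) in young wild-type and 0.80 ± 0.60 in young deficient brains, a difference of 0.97 ± 0.26 (adjusted p = 0.0772 over genes), and its other contrasts were not called either.

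Hr, a corepressor that thyroid hormone induces strongly, read 1.66, 1.58, 1.86 and 1.69 in young wild-type brains and 2.15, 2.18, 1.97 and 2.14 in young deficient brains. In old wild-type brains it read 1.03, 1.27, 1.64 and 1.72, and in old deficient brains 1.77, 1.14, 1.66 and 1.74. The young deficient arrays were the 4 highest of all 16. The differences were 0.41 ± 0.16 by genotype at 4 months (limma adjusted p = 0.211, exact two-sided permutation p = 0.0286) and -0.53 ± 0.16 by age in deficient mice (adjusted p = 0.0949, exact p = 0.0286). At 18 months the genotype difference was 0.16 ± 0.16 (interval -0.18 to 0.51), and the age difference in wild-type mice was -0.28 ± 0.16 (-0.63 to 0.06). Neither the averaged genotype difference, 0.29 ± 0.11 (adjusted p = 0.228), nor the averaged age difference, -0.41 ± 0.11 (0.103), was called.

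Klf9, a zinc finger factor induced by thyroid hormone and by glucocorticoids, was the steadiest of the hormone targets, with group means of 3.58 ± 0.22 (SD, n = 4), 3.68 ± 0.14, 3.62 ± 0.22 and 3.66 ± 0.12 in young wild-type, young deficient, old wild-type and old deficient brains. Its 4 genotype and age differences lay between -0.02 and 0.10, and the upper end of their intervals was at most 0.38. The glucocorticoid-responsive list averaged -0.18 in young and 0.24 in old deficient brains, where Per1 rose by 0.71 ± 0.14 (adjusted p = 0.0206) and Pdk4 by 0.60 ± 0.10 (0.00727) as 2 of its 8 genes. In that contrast 2.39% of all genes were called. The Klf9 age difference in the same mice was -0.02 ± 0.13 (interval -0.30 to 0.26). Crym, the cytoplasmic hormone-binding protein, had means of 4.30 ± 0.39 and 4.37 ± 0.10 in young and 4.71 ± 0.31 and 4.55 ± 0.30 in old brains, wild type before deficient. Its largest difference was 0.41 ± 0.20 by age in wild type (adjusted p = 0.819), and its lowest value, 3.72, came from array 1 of the young wild type, without which the Crym difference was 0.21 ± 0.17.

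Counted over the 11 probes, 0 were called by genotype at 4 months (3 at an unadjusted p under 0.05), where the limma fit called 1.45% of all probes and 17.2% of all probes had such a p. With age in wild type 0 were called (2 unadjusted), against 0.369% and 6.28% of all probes, and in the interaction 0 (1 unadjusted), against 0.236% and 10.8%. At an unadjusted p under 0.05 there were 1 of 11 by genotype at 18 months, where 10% of all probes had such a p, 4 with age in deficient mice (20.4%), 2 by genotype averaged over ages (15.1%) and 5 with age averaged over genotypes (14.6%). The first 3 counts of called probes, by genotype at 4 months, by age in wild type and for the interaction, stayed at 0 in all alternative settings. Groups did not overlap for 2 of 11 probes by genotype at 4 months (Dio3 and Hr) where 9.4% of all probes did so, and for 1 (Dio2) at 18 months, against 8.03%. By age the counts were 1 in wild type (Slco1c1 at 2643), against 3.51%, and 4 in deficient mice (Dio2, Hr and both Thrb probes), against 17.4%. The median difference of the 11 probes was -0.06, 0.01, 0.04 and 0.07 in these 4 contrasts, with 0.022, 0.014, 0.004 and -0.001 for all probes.

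**Figure D3:**
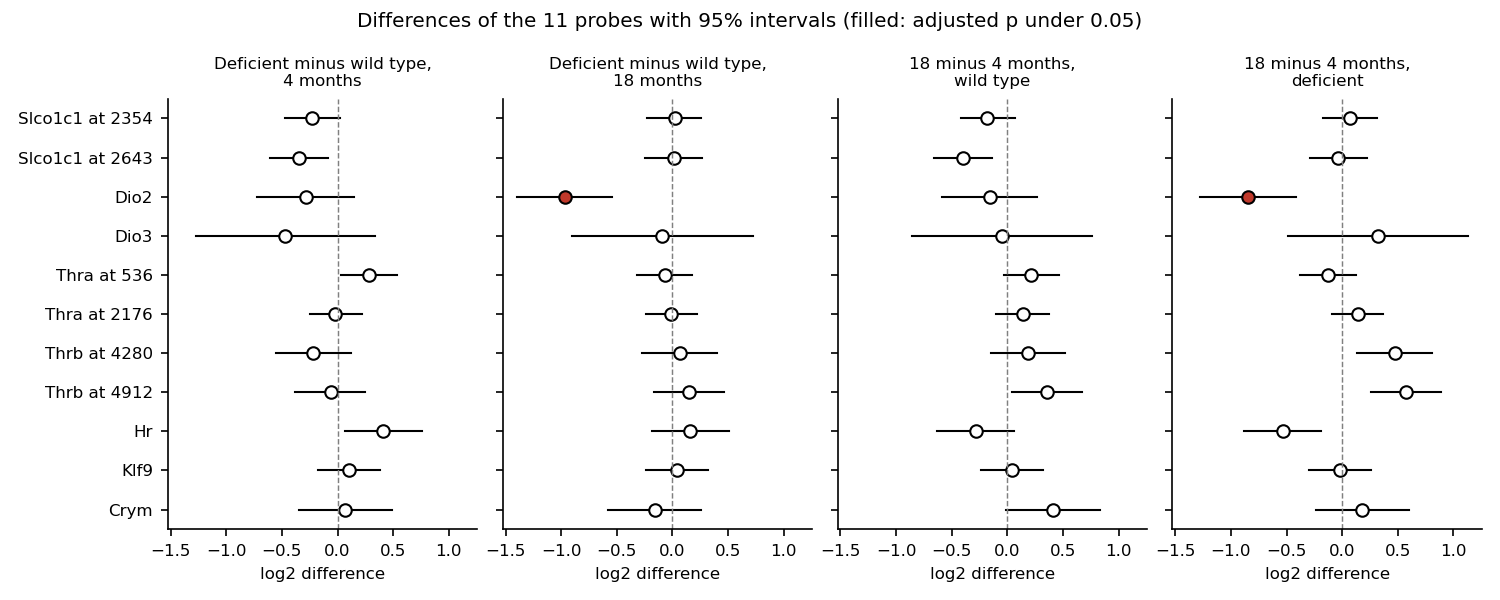
Log2 differences (x axis) of the 11 probes in the 4 simple contrasts with 95% intervals from the limma fit of the 4 groups; filled symbols are called at an adjusted p under 0.05. The filled symbols are Dio2 at 18 months (-0.97) and Dio2 with age in deficient mice (-0.85).

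Members were then compared with one another through the deviation of each array from its group mean, so that genotype, age, slide and slide row do not enter. Each gene was represented by its brighter probe, 28 pairs were examined over 16 arrays, and arrays were permuted within groups 100000 times. Dio3 and Hr deviated in opposite directions (r = -0.93, permutation p = 0.0019, adjusted p = 0.018; rho = -0.86, p = 0.011, adjusted p = 0.06). Arrays with much Dio3 had little Hr, and without the 2 arrays farthest in Dio3, array 2 of the old deficient and array 1 of the old wild type, r was -0.84. Dio2 and Thrb also ran opposite (r = -0.78, p = 0.0015, adjusted p = 0.018; rho = -0.79, p = 0.00086, adjusted p = 0.024, all by permutation), with r = -0.62 without array 1 of the young and array 3 of the old deficient group. Thra at 2176 rose and fell with Thrb (r = 0.77, permutation p = 0.0026, adjusted p = 0.018; rho = 0.74, p = 0.0019, adjusted p = 0.027) and with Klf9 (r = 0.71, p = 0.0021, adjusted p = 0.018; rho = 0.69, p = 0.0033, adjusted p = 0.03). Without array 1 of the young deficient and array 1 of the young wild type these were 0.59 and 0.60. The dimmer Thra probe at 536 did not share them, with r = -0.27 to Thrb at 4280 and r = -0.01 to Klf9 within groups. For the dimmer Thrb probe at 4912, r within groups was -0.58 with Dio2 and 0.59 with Thra at 2176. Dio3 and Crym moved in the same direction (r = 0.73, permutation p = 0.0054, adjusted p = 0.03; rho = 0.79, p = 0.0082, adjusted p = 0.058), with 0.60 without the 2 arrays farthest in Dio3. The remaining pairs had adjusted p-values of 0.074 or more for r. On each array the 2 genes of a pair share the RNA sample and its signal scale, and array 1 of the young deficient group was far out in Dio2, Thra and Thrb at once.

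**Figure D4:**
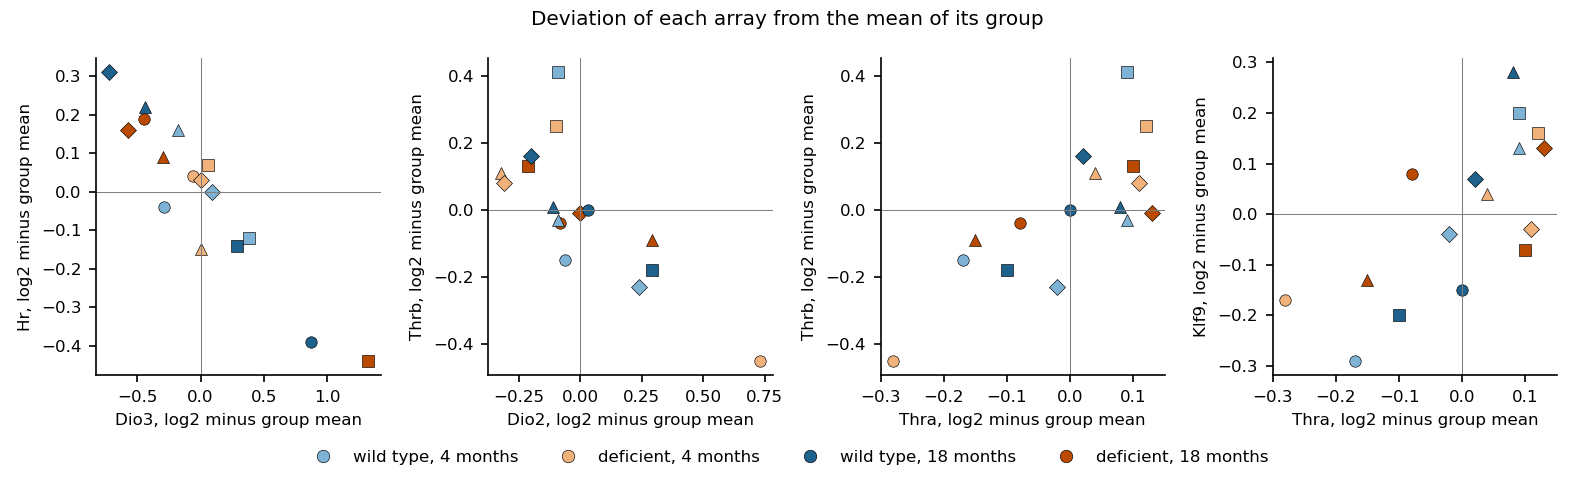
Deviation of each array from its group mean (log2) for 4 pairs of genes: Hr against Dio3, Thrb against Dio2, Thrb against Thra and Klf9 against Thra; points are the 16 arrays, coloured by group, with arrays 1 to 4 as circle, square, triangle and diamond. Hr lies low where Dio3 lies high (r = -0.93), and array 1 of the young deficient group sits alone at high Dio2 and low Thrb. Thra is read by its probe at 2176 and Thrb by its probe at 4280.

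For each gene the 3 named genes with the most similar level over the 16 arrays were looked up among 14036 candidates, with Pearson's r as a description. Dio2 was most like Gp9 (r = 0.941), Syngr2 (0.919) and Sltm (0.918), and Slco1c1 like Sytl3 (0.925), Tuba1c (0.908) and Perp (0.890). Thrb was most like Klf10 (r = 0.965), Gpr1 (0.962) and Zdhhc23 (0.953), and Thra like Spink8 (0.919), Sowaha (0.906) and Fgf13 (0.903). Dio3 was nearest to Oxtr, the oxytocin receptor (r = 0.873), Arhgef28 (0.838) and Sstr1, a somatostatin receptor (0.817), and Crym to Mas1 (0.901), Pik3r5 (0.864) and Irak3 (0.842). Hr was nearest to Mapk6 (r = 0.919), Akt2 (0.886) and Snrk (0.867), and Klf9 to Slc2a12 (0.916), Nr2c2 (0.857) and Frrs1l (0.850).

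The rest of the pathway was described through 6 lists of 74 genes, of which 70 were measured with 1 probe per gene over 23032 genes. By genotype at 4 months 1 of 70 genes was called (1.43%), where 1.53% of all genes were. At 18 months 0 of 70 were called (limma, 6 at an unadjusted p under 0.05, or 8.57%), against 1.47% of all genes called and 9.91% with such a p. With age 1 of 70 was called in wild type (0.421% of all genes) and 1 of 70 in deficient mice (2.39%). Averaged over genotypes 2 of 70 were called with age (2.86%, against 1.61%). These were Itga7 and Cga, and Cga passed the filter through the young groups only, so its call depends on how background is handled (given below). Averaged over ages 0 were called by genotype (8 unadjusted) and in the interaction 0 (2 unadjusted), against 3.19% and 0.187% of all genes called. At an unadjusted p under 0.05 there were 10 of 70 by genotype at 4 months (14.3%, against 17.4% of all genes), 9 with age in wild type (12.9%, against 6.35%) and 11 with age in deficient mice (15.7%, against 21%). For the averaged age difference there were 14 (20%, against 14.8%), and the 8 and 2 above stand against 15.4% and 10.6% of all genes.

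Among the 6 measured transporters 0 were called in any contrast. Slc7a5, the large neutral amino acid transporter that also carries thyroid hormone, had the smallest p by genotype at 4 months, 0.48 ± 0.18 (limma adjusted p = 0.181), and averaged over ages, 0.39 ± 0.12 (0.116), each the 1 transporter with an unadjusted p under 0.05. Of all genes 17.4% and 15.4% had such a p. Slco4a1 differed by -0.41 ± 0.18 with age in wild type (0.706). The median transporter difference was 0 at 4 months and -0.10 at 18 months by genotype, where the median of all genes was 0.022 and 0.006. Slc16a10 was below the filter. Of the 9 measured genes of deiodinase synthesis and turnover 0 were called. Wsb1, which marks Dio2 protein for degradation, differed by -0.50 ± 0.15 by genotype at 4 months (adjusted p = 0.113), and Ube2j1, an ubiquitin-conjugating enzyme, by 0.35 ± 0.11 at 18 months (0.181). Ttr, the thyroxine carrier of the choroid plexus, differed by -0.73 ± 0.31 with age in wild type (adjusted p = 0.708). Choroid plexus markers moved beside Ttr in that comparison, with 9 of 9 genes lower, a median of -0.69 and list levels from -0.15 to 1.69 in young and -0.55 to 0.40 in old wild type. Their part in the Ttr value was not tested. Dio1 was below the filter.

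None of the 14 receptor partners and cofactors was called in the limma fit. At an unadjusted p under 0.05 there were 2 by genotype at 4 months and 1 at 18 months, where 17.4% and 9.91% of all genes had such a p. Each age contrast had 1, against 6.35% of all genes in wild type, 21% in deficient mice and 14.8% averaged over genotypes. Rxra, a receptor partner, differed by 0.35 ± 0.16 by genotype at 4 months (adjusted p = 0.278), and Ppargc1a, a coactivator, by 0.46 ± 0.17 with age in wild type (0.54).

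Of 7 genes of the hypothalamic and pituitary thyroid axis 5 were measured, Tshb and Tshr being below the filter. Cga, the common subunit of the pituitary glycoprotein hormones, was called lower with age averaged over genotypes (adjusted p = 0.0362), but it passed the filter through the young groups only. Its levels ran from -3.34 to 2.71 in young wild-type, -3.87 to 1.17 in young deficient, -8.05 to -4.73 in old wild-type and -7.94 to -1.85 in old deficient arrays, and it was well above background on 4, 4, 1 and 2 of 4 arrays. The size of the Cga difference therefore depends on how background is handled: it was -4.84 on the processed signal, -2.45 with normexp correction (adjusted p = 0.127) and -2.87 in the deposited values (0.0744). It was called in 5 of 16 fits that left out 1 array, and reached 0.0867 without array 2 of the old deficient group. Cga is itself a pituitary gene and moved with the pituitary list given above. Trh, the hypothalamic releasing hormone, differed by -0.91 ± 0.44 with age in wild type (0.82).

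The list of 26 genes known to rise with thyroid hormone in rodent brain had 1 called gene. In the contrasts concerned, age in deficient mice and age averaged over genotypes, 2.39% and 1.61% of all genes were called. Itga7, an integrin subunit, fell with age in deficient mice by 0.68 ± 0.13 (adjusted p = 0.0171) and averaged over genotypes by 0.48 ± 0.09 (0.0173), with means of 2.82 ± 0.21 (SD, n = 4) in young and 2.14 ± 0.18 in old deficient brains, and 2.48 ± 0.17 and 2.20 ± 0.18 in wild type. The first of these calls was lost without array 2 of the old deficient group (0.0692) and the second without array 3 of the young wild type (0.0501). Mag, a myelin glycoprotein, differed by -0.94 ± 0.24 with age in deficient mice (0.0519). By genotype at 4 months 0 of the 26 were called (5 higher and 0 lower at an unadjusted p under 0.05, which 17.4% of all genes had), with 19 of 26 above 0 and a median of 0.15, where 53.5% of all genes were above 0 with a median of 0.022. Dbp, a clock output factor, was first at 0.53 ± 0.18 (adjusted p = 0.154). With age in deficient mice 17 of 26 lay below 0, with a median of -0.21 against -0.014 for all genes. Cell markers moved beside these shifts, and the list itself holds neuronal and myelin genes such as Pcp2 of Purkinje cells. By genotype at 4 months 7 of 8 cerebellar markers (median 0.37, 3 at an unadjusted p under 0.05) and 10 of 10 neuron markers (median 0.13, 1 unadjusted) were higher in deficient brains. With age in deficient mice 8 of 8 cerebellar markers were lower (median -0.69, 5 unadjusted, against 21% of all genes). In each of these comparisons 0 of these markers were called by limma. Their part in the list's shifts was not tested. At 18 months the genotype median was 0.03, and Nefh, the heavy neurofilament chain, was first at 0.60 ± 0.19 (0.191).

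Of 10 genes known to fall with thyroid hormone, Cirbp, the cold-inducible RNA-binding protein, rose by 0.45 ± 0.10 by genotype at 4 months (adjusted p = 0.0475) and by 0.54 ± 0.10 with age in wild type (0.0352). In these contrasts 1.53% and 0.421% of all genes were called. Both Cirbp calls come from the limma fit of 1 probe per gene. In the limma fit of all kept probes the same Cirbp probe had adjusted p-values of 0.054, not called, and 0.0424. Its levels were 3.32 to 3.55 in young wild-type, 3.80 to 3.96 in young deficient, 3.84 to 4.12 in old wild-type and 3.45 to 3.80 in old deficient arrays, so that the young wild-type arrays lay below both other groups of these comparisons. A second Cirbp probe differed by 0.11 ± 0.22 and -0.24 ± 0.22 in the same contrasts, and the mean of both probes by 0.28 (adjusted p = 0.205) and 0.15 (1). The first call was lost in 15 of 16 fits without 1 array (adjusted p up to 0.122, without array 2 of the young wild type) and the second in 10 of 16 (up to 0.128, without array 4 of the old wild type). The Cirbp interaction was -0.78 ± 0.15 (0.0544).

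**Figure D5:**
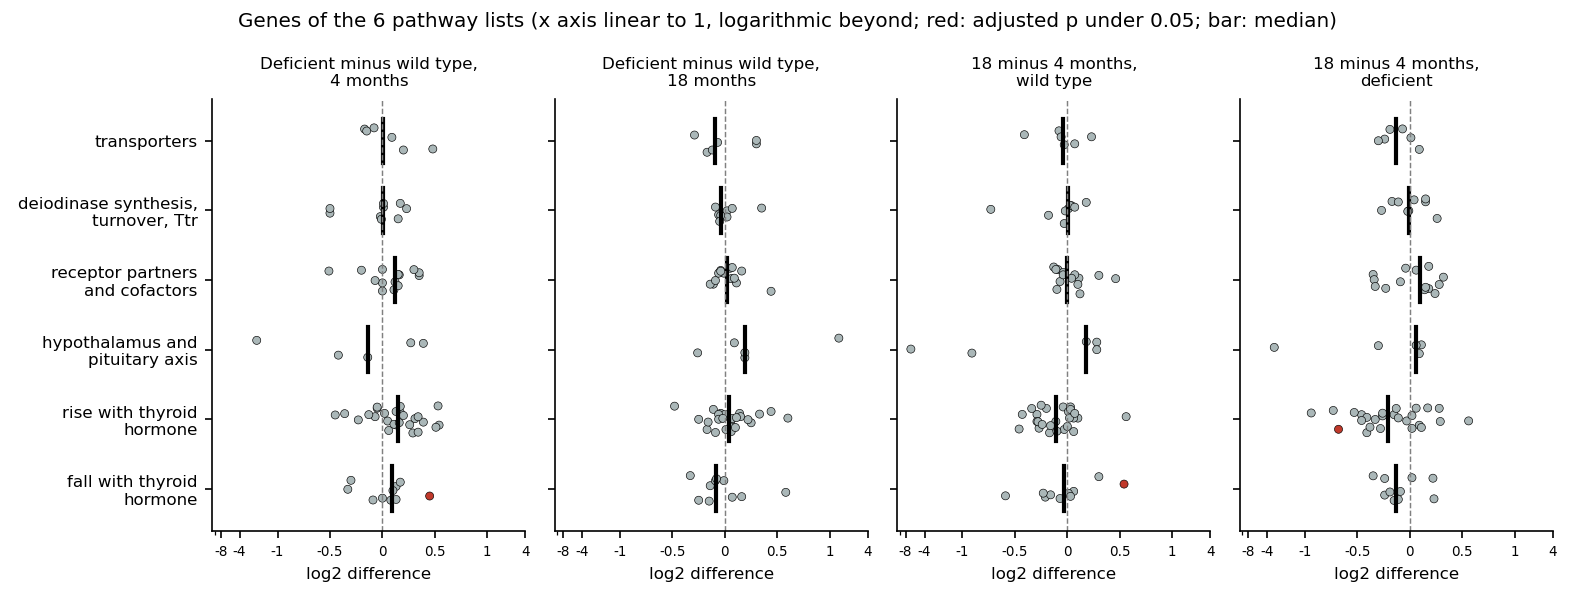
Log2 differences (x axis, linear up to 1 and logarithmic beyond) of the 70 measured genes of the 6 pathway lists in the 4 simple contrasts; points are genes, bars list medians, and red points are called. The red points are Cirbp at 4 months by genotype (0.45) and with age in wild type (0.54), and Itga7 with age in deficient mice (-0.68).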

How the data were processed

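Whole-brain RNA of 16 male mice was purified on RNeasy columns, amplified and given the dye Cy3, per the labels' protocols. The intensity of each spot comes from Agilent Feature Extraction 10.7.3.1 with NCBI37/mm9 annotation, and the processed intensity is background-subtracted, per the file headers. The deposited value table of the series holds log2 values of unstated scale. Its columns had medians of 6.61 to 6.62 and ranked spots as the raw median signal did, without background subtraction, while the exact normalization stays unknown; it served as an alternative. The submitters' processing notes name limma without steps. Group, age and replicate number come from the sample labels, where the strain and age entries are interchanged.

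Of 59305 non-control spots per array, 98 to 182 outlier spots were left out and 0 were saturated. Spots of a probe were averaged after log2 scaling to the 75th percentile. A probe was kept if some group had it well above background on each of its 4 arrays (in at least 50% of its spots). Limma 3.58.1 (R 4.3.3) fitted 4 group means to 33075 probes, or for lists and markers to 23032 genes (the brightest kept probe of each), with 12 residual and 2.94 or 2.84 prior degrees of freedom, eBayes and Benjamini-Hochberg adjustment per contrast at 0.05. The scripts were tested on simulated data. Probe coordinates are the files' own. Promoters come from RefSeq's GRCm38.p6 tables.

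The members, the pathway and marker lists and the tests were chosen with earlier results of these data known. Named were all member probes, Slc5a8, Nr1d1, list genes that were called or among the 2 with the smallest p of a list and contrast, and the 3 most similar genes per member. Some items that this rule names are not reported here. Marker genes named beyond that were chosen after their values were seen.

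Alternatives were normexp background correction (offset 50), quantile normalization, the deposited table, no filter, probes above background on all arrays (29469), 1 probe or the probe mean per gene, the replicate number as a block, the 2 compared groups alone, each array left out and, added after seeing the data, both arrays that stood apart left out.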

Additional observations from a re-analysis of the deposited data

Results flagged for a closer look

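Of 44 groups of 4 arrays examined, 3 held an array whose gap to its neighbours, relative to the group's range, exceeded Dixon's 95% critical value for 4 values, where chance gives about 1 in 20. Crym read 3.72 on array 1 of the young wild type and 4.45 to 4.57 on the other arrays of that group (gap over range 0.869). Dio2 read 3.09 on array 4 of the young wild type and 2.76 to 2.80 on the others (0.886). Dio3 read -1.86 on array 2 of the old deficient group and -3.74 to -3.47 on the others (0.857).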

How the results depend on the processing

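Every called value of the 11 probes kept its sign in all settings, and 26 of 716 values changed sign among uncalled ones (73 of 1232 with 1 array left out). Without the filter on dim probes, and with the replicate number as a block, 0 member probes were called by genotype at 18 months, with age in deficient mice and in both averaged contrasts, against 1 each. The labels' replicate numbers are shared between groups but did not pair the arrays: over 24 same-number pairs the correlation of deviations ran from -0.419 to 0.249, 6 exceeded 0.1, and 7 arrays correlated best with their own number. With the replicate block Dio2 had adjusted p-values of 0.0606 (18 months), 0.0832 (age, deficient) and 0.0572 (averaged genotype), and Thrb at 4912 had 0.0736. In the 2 compared groups alone, and without both arrays that stood apart, 0 probes were called with age in deficient mice (Dio2 0.138 and 0.0686). The averaged age count was 0 with 1 probe per gene, with the probe mean and without those 2 arrays. With 1 array left out the member count was 0 to 1 in these 4 contrasts. Of the pathway genes, 0 instead of 1 were called by genotype at 4 months under quantile normalization, the deposited table, no filter, the probe mean, the block, the 2 groups alone and without the 2 arrays, and with age in wild type under these and normexp. With age in deficient mice the count was 2 under normexp, quantile normalization, the deposited table, probes above background on all arrays and the probe mean, and 0 in the 2 groups alone. The averaged genotype count was 1 under quantile normalization, the deposited table and without the 2 arrays, and the averaged age count 1 under normexp, no filter and probes above background on all arrays. With 1 array left out these counts ran from 0 to 1 (genotype at 4 and 18 months, age in wild type, interaction) from 0 to 2 (age in deficient mice, averaged genotype) and from 0 to 3 (averaged age, 3 without young deficient array 1 or young wild-type array 2, 0 without young wild-type array 3). Causes were not tested beyond each setting's construction, in which no filter adds dim probes to the adjustment and omissions remove arrays.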
